A study of Rattus norvegicus with 3 samples.

Results

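Glutamate, GABA and glycine are fast transmitters of the retina, and the genes described here encode subunits and receptors that detect them. The members were taken by gene symbol, 37 genes of the 18425 in the deposited table, in 8 families: 4 AMPA, 5 kainate and 6 NMDA receptor subunits, 6 metabotropic glutamate receptors, 8 GABA-A subunits, 2 rho subunits, 2 GABA-B subunits and 4 glycine receptor subunits. The selection rule uses gene symbols and no threshold on a measured value. Other genes of these families were not analysed here.

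RNA was sequenced from retinas of wild-type Sprague Dawley rat pups that received an intravitreal injection of 1 μl on postnatal day 1 and were harvested on postnatal day 4. The STZ group received 10 μg of streptozotocin, a glucose-linked alkylating compound that is toxic to insulin-producing cells, in citrate buffer of pH 4.5. The Buffer group received the citrate buffer and the Saline group received saline, so that injection itself was common to all 3 groups and buffer to 2 of them. Each group was represented by 1 library, so no difference could be set against a spread between animals, no test was made and no p-value is given. How many retinas were pooled in a library was not given in the sources used here. For its tests of retinal function and morphology the study put STZ in right eyes and buffer in the fellow left eyes, and whether the sequenced Buffer and STZ retinas were such fellow eyes was not given.

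AMPA, kainate and NMDA receptors are cation channels assembled from glutamate-binding or glycine-binding subunits, and they carry fast excitation. Metabotropic glutamate receptors and GABA-B receptors signal through G proteins. GABA-A, rho and glycine receptors are chloride channels that inhibit mature neurons, while in immature neurons with high internal chloride they can depolarise. In the mature retina, photoreceptors and bipolar cells release glutamate, and amacrine cells release GABA or glycine. At the age studied here the rat retina is still generating its later-born cell types, and synapses are being assembled.

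Depth was nearly equal, the Buffer, Saline and STZ libraries holding 21992702, 21977843 and 22031249 estimated reads. The Saline library stood apart in ciliary and pigment epithelium genes, whose summed reads were 3.81 and 3.11 times those in Buffer. Among the pigment genes Mitf had a Saline to Buffer interval that spanned 1 (0.938 to 1.69), and Rpe65 had at most 2 reads in any library. The STZ library stood apart in lens genes, with 12.9 times the reads in Buffer, and in microglial genes, with 2.65 times. Lens reads in Saline were 2.30 times those in Buffer. Mip, 1 of the 4 lens genes, had an STZ to Buffer interval that spanned 1 (0.851 to 1.63). Markers of neurons were present in all 3 libraries, and the marker sums are set beside the receptor values further on. Since the tissue was bulk retina, fewer cells of a type and less RNA per cell cannot be told apart.

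Reference promoters of 27 of the 37 receptor genes were matched by symbol in RefSeq (assembly GRCr8). The letters GGGCGG, a GC box, were found on either strand of the 250 bases before the start in 11 of the 27 (40.7%), against 30.5% of all 33469 promoters. TATAAA was found on either strand in 3 of the 27 (11.1%), against 12.9% of all. The median GC content was 57.6% in the receptor promoters and 51.2% in all. The 3 promoters printed here belong to the genes of each transmitter with the highest STZ to Buffer read ratio among those with at least 500 Buffer reads and a promoter in the table, and they show how differently composed these stretches are. Each is the 250 bases before the annotated start, written 5′ to 3′ on the gene's strand, with any GGGCGG or TATAAA, on either strand, in capitals: Gria4 at chr8:10319882-10320131 (minus strand), Gabbr2 at chr5:66083696-66083945 (minus strand) and Glra2 at chrX:32651937-32652186 (plus strand).
Gria4: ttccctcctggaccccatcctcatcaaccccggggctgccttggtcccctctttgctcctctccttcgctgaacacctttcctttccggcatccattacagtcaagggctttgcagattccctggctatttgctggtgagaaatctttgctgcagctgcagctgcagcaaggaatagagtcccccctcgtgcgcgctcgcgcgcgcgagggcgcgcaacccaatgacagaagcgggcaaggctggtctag
Gabbr2: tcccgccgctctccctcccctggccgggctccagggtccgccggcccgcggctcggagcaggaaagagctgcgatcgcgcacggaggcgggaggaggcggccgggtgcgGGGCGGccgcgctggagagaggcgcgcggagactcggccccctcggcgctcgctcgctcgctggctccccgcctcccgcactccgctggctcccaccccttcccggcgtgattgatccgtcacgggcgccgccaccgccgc
Glra2: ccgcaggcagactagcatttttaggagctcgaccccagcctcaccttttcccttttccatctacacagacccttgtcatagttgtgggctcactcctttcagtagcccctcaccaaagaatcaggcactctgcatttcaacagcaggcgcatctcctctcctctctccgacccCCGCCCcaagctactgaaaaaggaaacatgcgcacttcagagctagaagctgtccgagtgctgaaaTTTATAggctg
GC content was 59.6% for Gria4, 78.8% for Gabbr2 and 52.4% for Glra2. Gria4 held neither motif, Gabbr2 held a single GGGCGG, and Glra2 held a GGGCGG and a TATAAA, both on the opposite strand. A match is a run of letters and was not tested as a binding site.

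Levels are given as FPKM, read counts scaled to transcript length and library depth, which can be compared between genes. They ran from 0.09 to 75.3. Gabbr1 was the most abundant receptor gene in every library, with a Buffer value of 72.2 FPKM, a Saline value of 70.1 and an STZ value of 75.3. Grik5 followed at 27.6, 29.8 and 31.5. At the low end Glra1 had 0.13, 0.19 and 0.29 FPKM, and Glra3 had 0.44, 0.14 and 0.09. Between these extremes lay Gria1, Gria2, Gria4, Grik1, Grin1, Grin2c and Glra2, each between 11.9 and 20.3 FPKM in all 3 libraries.

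**Figure D1:**
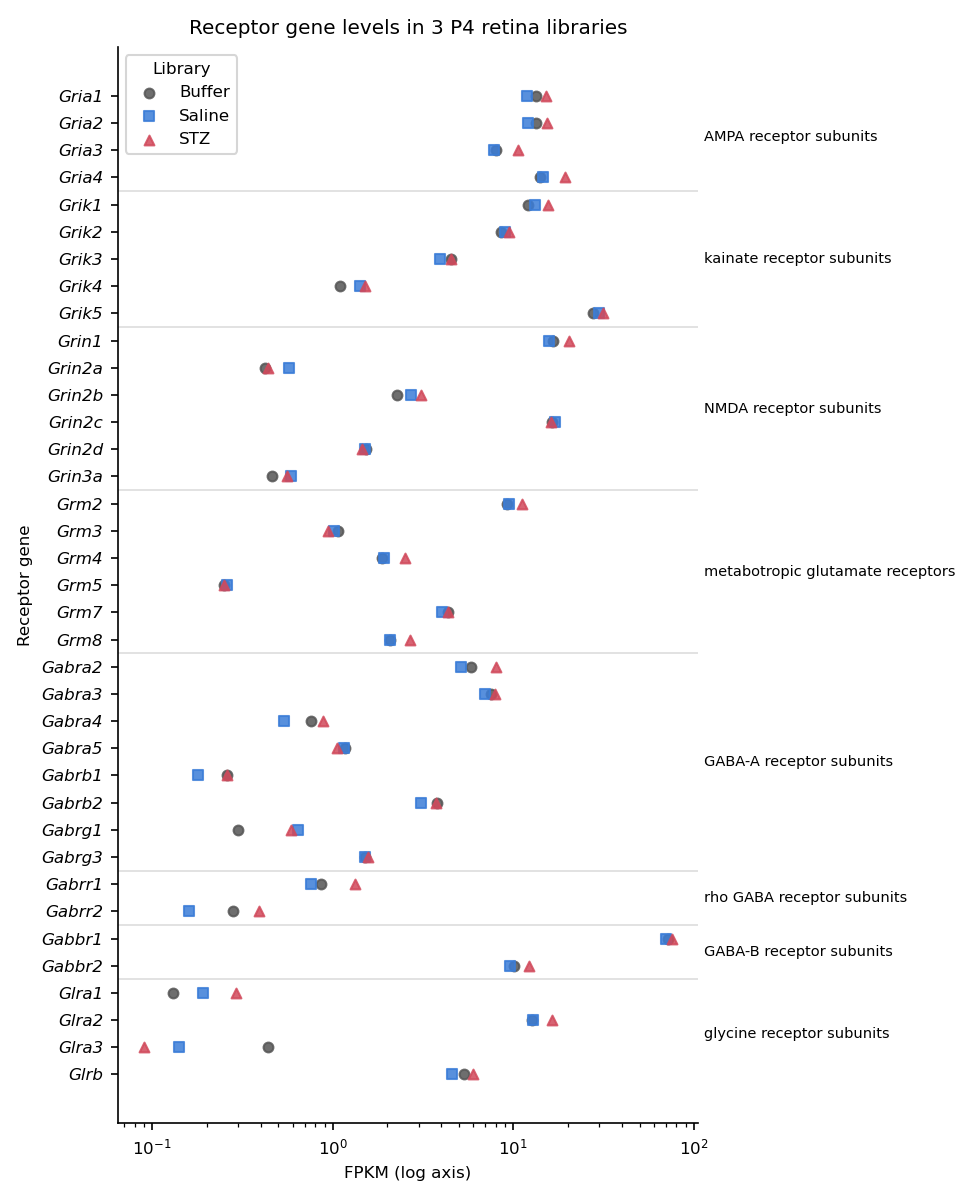
FPKM (log axis) of each of the 37 receptor genes in the Buffer, Saline and STZ libraries, 1 point per library, grouped by family. Gabbr1 is highest in all 3 libraries, and most genes have their 3 points close together compared with the distance between genes.

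Changes between libraries were small against the range of levels. By the study's own measure, the fold (FPKM + 1)/(FPKM + 1) with thresholds of 1.54 and 0.65, 0 of the 37 receptor genes were past either threshold in STZ against Buffer, where 2.25% of all genes were past the upper and 1.04% past the lower. The count was also 0 of 37 in each direction in STZ against Saline, where 2.04% and 1.75% of all genes were past, and in Saline against Buffer, where 1.0% and 0.429% were. The highest fold among them was 1.47, for Gabra2 in STZ against Saline. The lowest was 0.757, for Glra3 in STZ against Buffer. The 1 added to both values draws the folds of weakly expressed genes toward 1. Glra3, at 0.44 FPKM in Buffer, could not have passed the lower threshold there at any STZ value. Glra1 had a plain FPKM ratio of 2.23 in STZ against Buffer and a fold of 1.14. The 0 of 37 therefore says little about the weakest genes.

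Read counts resolved smaller differences. For each gene the share of the library's reads was compared between 2 libraries as a count ratio, with an exact 95% interval that covers counting error only and not the variation between animals. Of the 36 receptor genes with a mean of at least 10 reads, 17 had an interval wholly above 1 in STZ against Buffer (47.2%, against 26.2% of the 14885 genes of that depth), and 0 had one wholly below 1 (against 18.8%). In STZ against Saline, 18 of 36 were wholly above 1 (50.0%, against 26.9% of all genes) and 0 were below (against 23.5%). Saline against Buffer gave 3 above, Grik1, Grik5 and Grin2b, and 3 below, Gria1, Gria2 and Gabrb2 (8.33% each way, against 15.9% and 12.0% of all genes). The remaining gene, Glra3, had too few reads to enter these counts. Both STZ comparisons share the STZ library, and the Buffer and Saline libraries each enter 2 comparisons.

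Taken as a sum, the 37 genes had 24812 reads in Buffer, 24445 in Saline and 28445 in STZ, or 0.113%, 0.111% and 0.129% of each library. The STZ sum was 1.14 times the Buffer sum (1.13 to 1.16) and 1.16 times the Saline sum (1.14 to 1.18), while the Saline and Buffer sums differed by less than counting error (ratio 0.986, 0.969 to 1.00). The median log2 fold of the 36 deeper genes was 0.15 in STZ against Buffer and 0.16 in STZ against Saline, beside 0.03 and 0.01 over all genes of that depth. In Saline against Buffer it was -0.01, beside 0.02.

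**Figure D2:**
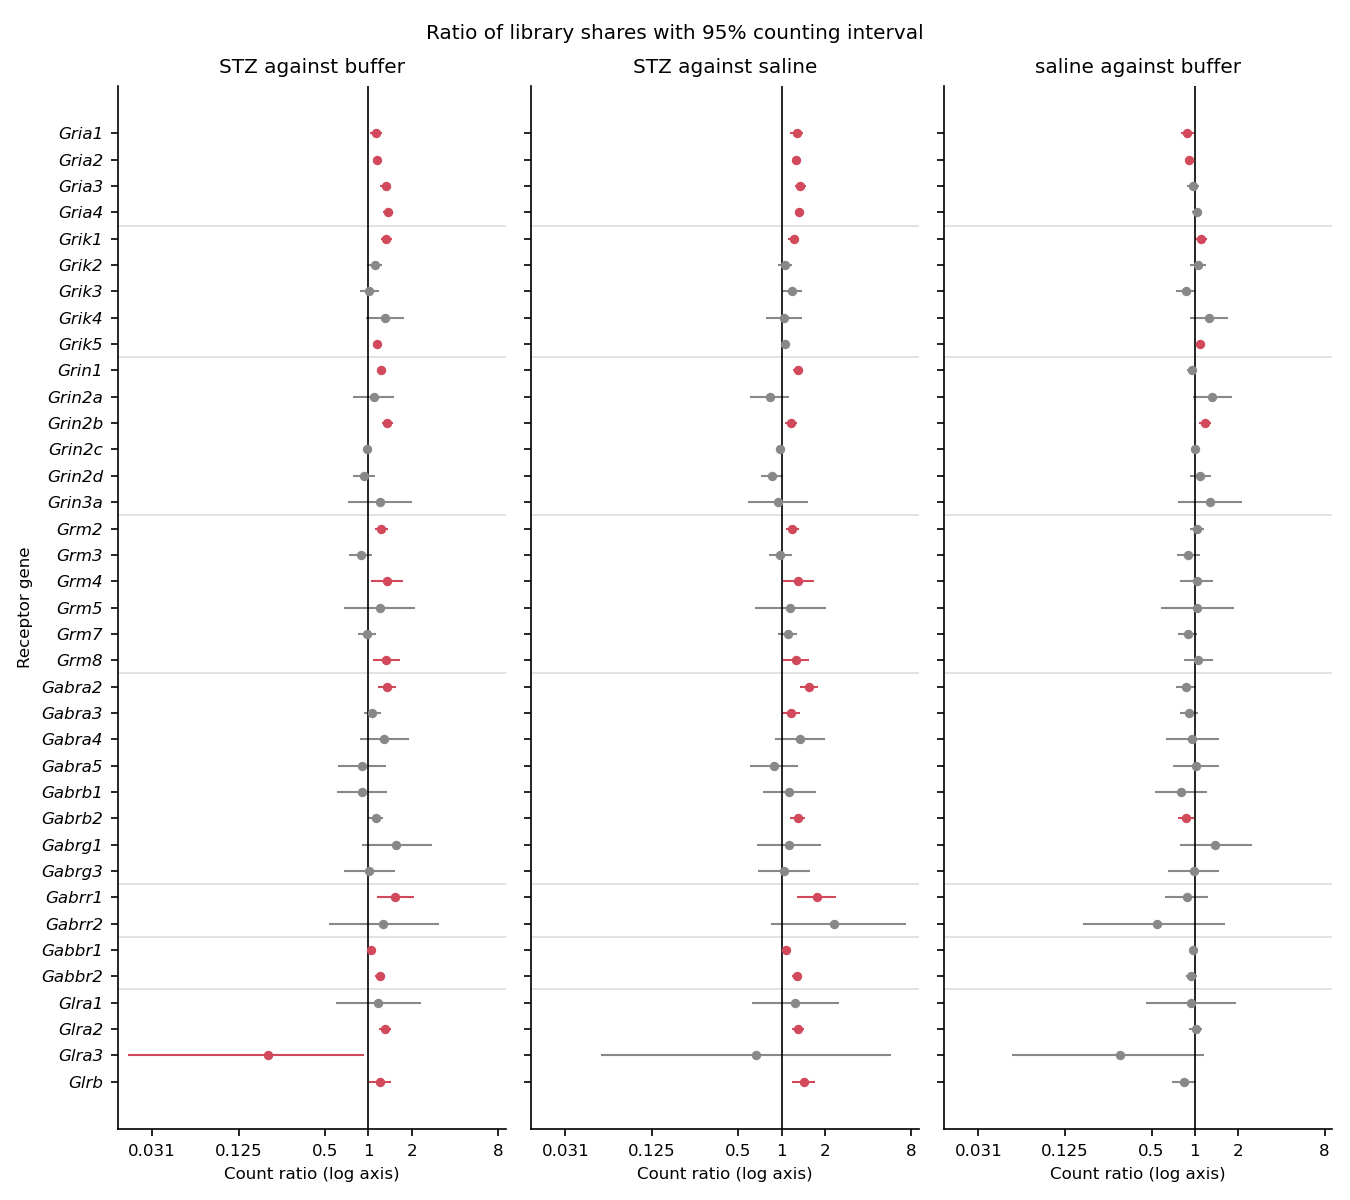
Count ratio (log axis) of each receptor gene for the 3 pairs of libraries, with exact 95% counting intervals; red marks intervals that exclude 1. In the STZ panels the red points lie above 1, 17 and 18 of the 36 deeper genes, except Glra3 in STZ against Buffer.

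Among the glutamate receptors, all 4 AMPA subunits had more reads in STZ than in either control. AMPA receptors carry most of the fast excitatory current in the retina. In the order Buffer, Saline, STZ, which is kept from here on, Gria4 read 14.0, 14.6 and 19.2 FPKM from 1052, 1089 and 1453 reads. Its count ratio was 1.38 against Buffer (1.27 to 1.49) and 1.33 against Saline (1.23 to 1.44). Gria3 read 8.05, 7.78 and 10.6 FPKM from 844, 822 and 1113 reads, with ratios of 1.32 (1.20 to 1.44) and 1.35 (1.23 to 1.48). For both genes the controls lay close together and STZ stood above them.

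Gria2, the subunit whose edited form makes AMPA receptors poorly permeable to calcium, read 13.3, 12.1 and 15.4 FPKM from 1911, 1736 and 2203 reads. Gria1 read 13.4, 11.9 and 15.1 FPKM from 776, 687 and 878 reads. STZ was again the highest of the 3 libraries for both, but the controls were further apart: Saline was below Buffer, with ratios of 0.909 (0.851 to 0.971) for Gria2 and 0.886 (0.798 to 0.983) for Gria1. The STZ to Buffer ratios were 1.15 (1.08 to 1.22) for Gria2 and 1.13 (1.02 to 1.25) for Gria1, and the STZ to Saline ratio was 1.27 for both (1.19 to 1.35 and 1.15 to 1.41). The interval of Gria1 against Buffer no longer excluded 1 when library totals were scaled by TMM.

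Kainate receptors combine the Grik1 to Grik3 subunits, which form channels alone, with Grik4 or Grik5, which need them as partners. In these libraries only Grik1 and Grik5 had intervals above 1 in STZ against Buffer. Grik1, the subunit typical of some cone bipolar cells, read 12.1, 13.2 and 15.6 FPKM from 871, 959 and 1165 reads. Its ratios were 1.34 (1.22 to 1.46) against Buffer and 1.21 (1.11 to 1.32) against Saline, and Saline itself was 1.10 times Buffer. Grik5 had 2143, 2310 and 2451 reads. It was 1.14 times Buffer in STZ (1.08 to 1.21) and 1.08 times Buffer in Saline (1.02 to 1.14), and its STZ to Saline ratio of 1.06 had an interval from 0.9996 to 1.12. Grik5 was therefore higher in both STZ and Saline than in Buffer, with STZ and Saline not separable by counting error. Grik2 had 529, 556 and 587 reads, Grik3 had 328, 284 and 334, and Grik4 had 79, 99 and 103, and none of these 3 had an interval that excluded 1 in either STZ comparison.

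NMDA receptors need Grin1, which binds glycine, together with Grin2 subunits, which bind glutamate. Grin1 read 16.7, 15.7 and 20.3 FPKM from 1519, 1441 and 1865 reads. Its ratio was 1.23 (1.15 to 1.31) against Buffer and 1.29 (1.21 to 1.38) against Saline. Grin2b, the Grin2 subunit typical of immature neurons, read 2.27, 2.71 and 3.09 FPKM from 741, 868 and 1008 reads. It was 1.36 times Buffer in STZ (1.23 to 1.50) and 1.16 times Saline (1.06 to 1.27), and the Saline library was itself 1.17 times Buffer (1.06 to 1.30). Saline thus lay between the other libraries for this gene.

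The other Grin2 subunits did not share that pattern. Grin2c, the most abundant by FPKM, was nearly level at 16.4, 16.9 and 16.1 FPKM from 1629, 1644 and 1606 reads, with an STZ to Buffer ratio of 0.984 (0.918 to 1.06). Grin2d had 273, 297 and 255 reads and a ratio of 0.932 (0.783 to 1.11). Against Saline the STZ ratios were 0.9745 (0.909 to 1.045) for Grin2c and 0.8565 (0.722 to 1.016) for Grin2d. Grin2a, the subunit that gains weight in mature circuits, had 74, 98 and 81 reads at 0.42 to 0.57 FPKM. Grin3a, a further glycine-binding subunit, had 30, 38 and 36. Intervals of Grin2a and Grin3a spanned 1 in all 3 comparisons, and at this depth only large differences could have been seen.

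Of the 6 metabotropic glutamate receptors, Grm2, Grm4 and Grm8 had intervals above 1 in both STZ comparisons, and the other 3 had intervals that spanned 1. Grm2, a presynaptic receptor that lowers transmitter release, read 9.25, 9.44 and 11.1 FPKM from 655, 675 and 804 reads, with ratios of 1.23 (1.10 to 1.36) and 1.19 (1.07 to 1.32). Grm4 had 113, 116 and 152 reads, with ratios of 1.34 (1.05 to 1.73) and 1.31 (1.02 to 1.68). Grm8 had 153, 162 and 204 reads, with ratios of 1.33 (1.07 to 1.65) and 1.26 (1.02 to 1.55). Grm4 and Grm8 are release-limiting receptors of a second class, and their intervals were wide because the counts were low. The related Grm7 had 377, 335 and 369 reads, and its interval spanned 1 in both STZ comparisons. Grm3, with fractional counts of 258.0, 232.3 and 227.5, and Grm5, with 25, 26 and 30 reads, also had intervals that spanned 1.

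GABA-A receptors are pentamers of mostly alpha, beta and gamma subunits. Among the 8 listed genes Gabra2 stood out. Its FPKM of 5.86 (Buffer), 5.12 (Saline) and 8.0 (STZ) came from 351, 305 and 473 reads. Its ratio was 1.35 (1.17 to 1.55) against Buffer and 1.55 (1.34 to 1.79) against Saline. Gabra3, another alpha subunit, read 7.52, 6.96 and 7.93 FPKM from 387, 354 and 414 reads. Its ratio of 1.07 against Buffer had an interval that spanned 1, and that of 1.17 against Saline (1.01 to 1.35) did not hold under TMM scaling. Gabra3 led the family in Buffer and Saline, and in STZ its FPKM was close to that of Gabra2.

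Gabrb2, a beta subunit, had 541, 470 and 608 reads. It was 1.29 times Saline in STZ (1.14 to 1.46), and 1.12 times Buffer (0.998 to 1.26), while Saline was 0.869 times Buffer (0.767 to 0.986). Its deposited FPKM values, 3.80, 3.10 and 3.75, gave a different order, with Buffer slightly above STZ. The remaining GABA-A genes were low: Gabra4 had 48, 46 and 62 reads, Gabra5 61, 62 and 55, Gabrb1 56, 45 and 51, Gabrg1 23, 32 and 36, and Gabrg3 50, 49 and 51. None of those 5 had an interval that excluded 1 in any comparison.

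The rho subunits form GABA-gated channels on bipolar cells. Gabrr1 had 75, 66 and 116 reads, at 0.86, 0.76 and 1.33 FPKM. Its count ratio was 1.54 against Buffer (1.15 to 2.09) and 1.75 against Saline (1.29 to 2.41), in each comparison the highest point estimate among the receptor genes whose interval excluded 1. Gabrr2 had 11, 6 and 14 reads, too few to order the libraries.

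GABA-B receptors work as pairs of Gabbr1, which binds GABA, and Gabbr2, which couples to the G protein. Gabbr1 had 6663, 6465 and 6958 reads, and its ratios were 1.04 (1.01 to 1.08) and 1.07 (1.04 to 1.11). The first of these did not hold under TMM scaling. Gabbr2 read 10.1, 9.56 and 12.2 FPKM from 1163, 1101 and 1404 reads, with ratios of 1.21 (1.11 to 1.30) and 1.27 (1.18 to 1.38). The interval of Gabbr2 thus lay above that of Gabbr1 in both STZ comparisons, though Gabbr1 remained several times more abundant.

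Glycine receptors are built from alpha subunits and the beta subunit Glrb, which ties them to gephyrin. Glra2, the alpha subunit typical of developing neurons, read 12.7, 12.8 and 16.4 FPKM from 737, 748 and 968 reads. The controls were level and STZ was 1.31 times Buffer (1.19 to 1.45) and 1.29 times Saline (1.17 to 1.42). Glrb had 238, 201 and 287 reads, with ratios of 1.20 (1.01 to 1.44) and 1.42 (1.19 to 1.71), of which that against Buffer did not hold under TMM scaling. Glra1, the alpha subunit typical of the adult, had 18, 17 and 21 reads. Glra3 was listed with fractional counts of 10.3, 3.37 and 2.16, and its STZ to Buffer ratio of 0.200 had an interval from 0.0213 to 0.937. It was the only receptor gene with an interval below 1 in that comparison, where 15.5% of all genes without a depth filter had one, and with so few reads its level in STZ cannot be stated closely.

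Depth shaped which genes could pass. Among the 24 receptor genes with a mean of at least 100 reads, 16 had an interval above 1 in STZ against Buffer (66.7%, against 28.4% of all genes of that depth) and 17 did in STZ against Saline (70.8%, against 29.9%). Over genes averaging 10 reads or more, the median was 338 reads for the receptor genes and 622 for all genes. With directions counted regardless of the interval, 30 of 36 had a ratio above 1 in STZ against Buffer, beside 56.6% of all genes, 30 of 36 in STZ against Saline, beside 52.5%, and 17 of 36 in Saline against Buffer, beside 55.6%. Scaling by TMM left 14 of 36 genes with an interval above 1 in STZ against Buffer and 0 below, beside 20.8% of all genes above and 23.9% below. In STZ against Saline it left 17 above and 0 below, beside 24.9% and 25.7%. In Saline against Buffer, TMM took Grik1 out of the genes above 1 and added Gabbr1 to those below.

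**Figure D3:**
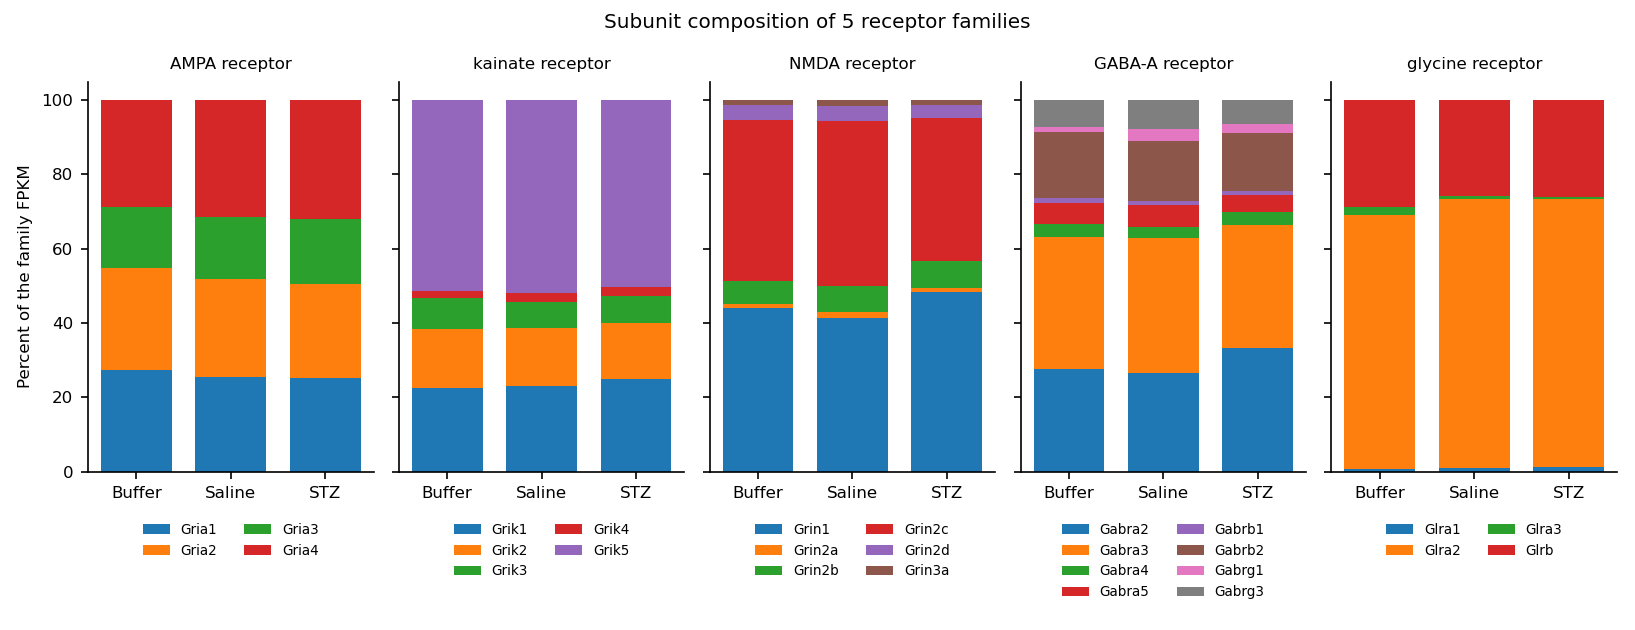
Share of each receptor family's summed FPKM held by each member in the Buffer, Saline and STZ libraries, in percent. The bars show 5 families. The largest member is the same in all 3 libraries for AMPA, kainate and glycine receptors, and differs for GABA-A subunits, where Gabra2 reaches 33.3% in STZ beside 33.0% for Gabra3, and NMDA subunits in Saline, where Grin2c has 44.5%.

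Within families the make-up was largely shared between libraries. Gria4 held 28.7%, 31.5% and 31.9% of the summed AMPA FPKM, and Gria1 and Gria2 each held between 25.1% and 27.5%. The Gria4 to Gria2 read ratio was 1.20 times higher in STZ than in Buffer (1.08 to 1.33), but 1.14 times higher in Saline than in Buffer as well (1.02 to 1.27), and the STZ to Saline value of 1.05 had an interval from 0.950 to 1.16. The Gria1 to Gria2 ratio was 0.982 in STZ relative to Buffer (0.874 to 1.10). Grin2c made up 79.6%, 78.0% and 76.4% of the summed FPKM of the 4 Grin2 genes, and Grin2b 11.0%, 12.5% and 14.6%.

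Subunit ratios that are known to shift as neurons mature differed in some cases and not in others. The Grin2d to Grin2b read ratio was 0.687 times its Buffer value in STZ (0.562 to 0.839) and 0.739 times its Saline value (0.608 to 0.898). The Grin2a to Grin2b ratio was 0.805 times its Buffer value, with an interval that spanned 1 (0.571 to 1.14), and 0.712 times its Saline value (0.516 to 0.980). For Glra1 to Glra2 the value against Buffer was 0.888 (0.447 to 1.78), which leaves the direction undetermined at this depth. Gabra2 to Gabra5 was 1.49 times the Buffer value (0.993 to 2.25) and 1.75 times the Saline value (1.16 to 2.64).

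The proteins that receptors act with gave a second view. Of 58 listed partner genes 57 were in the table, and none was past the fold thresholds in the same direction with STZ against both controls. Slc6a13, a GABA transporter, was past the upper threshold against Buffer and past the lower against Saline (folds of 1.64 and 0.397), with 12, 187 and 49 reads. Auxiliary subunits of AMPA and kainate receptors had summed reads 1.14 times those in Buffer (1.10 to 1.18), with 5 of 12 deeper genes having an interval above 1 and 0 below, against the 26.2% and 18.8% given for all genes. Cacng7, the most abundant of them by FPKM in Buffer, had 1154, 1136 and 1182 reads and a ratio of 1.02 (0.942 to 1.11).

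Excitatory scaffolds had 8 of 15 genes above and 2 below in STZ against Buffer, Dlg3 and Homer3 being the lower ones, named after their values were seen. Dlg4, which encodes PSD-95 and anchors NMDA and AMPA receptor complexes, read 57.5, 55.5 and 75.6 FPKM, with ratios of 1.35 (1.30 to 1.40) and 1.37 (1.31 to 1.42). Inhibitory postsynaptic proteins had 7 of 10 above and 0 below, and Gabarap, the most abundant, had a ratio of 1.10 (1.04 to 1.17). Transmitter synthesis and transport genes had 13 of 16 above and 0 below. The median log2 fold in STZ against Buffer was between 0.13 and 0.15 in these 4 lists, beside 0.03 over all genes. In STZ against Saline the genes above and below were 7 and 0 of the auxiliary subunits, 8 and 2 of the scaffolds, 6 and 0 of the inhibitory proteins and 10 and 3 of the transport genes, beside the 26.9% and 23.5% given for all genes. Slc17a7, the vesicular glutamate transporter of photoreceptors and bipolar cells, was chosen after its values were seen: it read 85.1, 77.4 and 130.8 FPKM, with folds of 1.53 (STZ over Buffer) and 1.68 (STZ over Saline).

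Chloride cotransporters help to set whether GABA and glycine channels excite or inhibit. Slc12a5, the extruder KCC2, had 4512, 4296 and 5721 reads, and Slc12a2, the importer NKCC1, had 1736, 1863 and 1568. Slc12a5 was 1.27 times Buffer in STZ (1.22 to 1.32) and Slc12a2 was 0.902 times Buffer (0.842 to 0.966). Their read ratio was 1.40 times its Buffer value in STZ (1.30 to 1.52) and 1.58 times its Saline value (1.46 to 1.71), and in Saline it was 0.887 times Buffer (0.820 to 0.960).

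**Figure D4:**
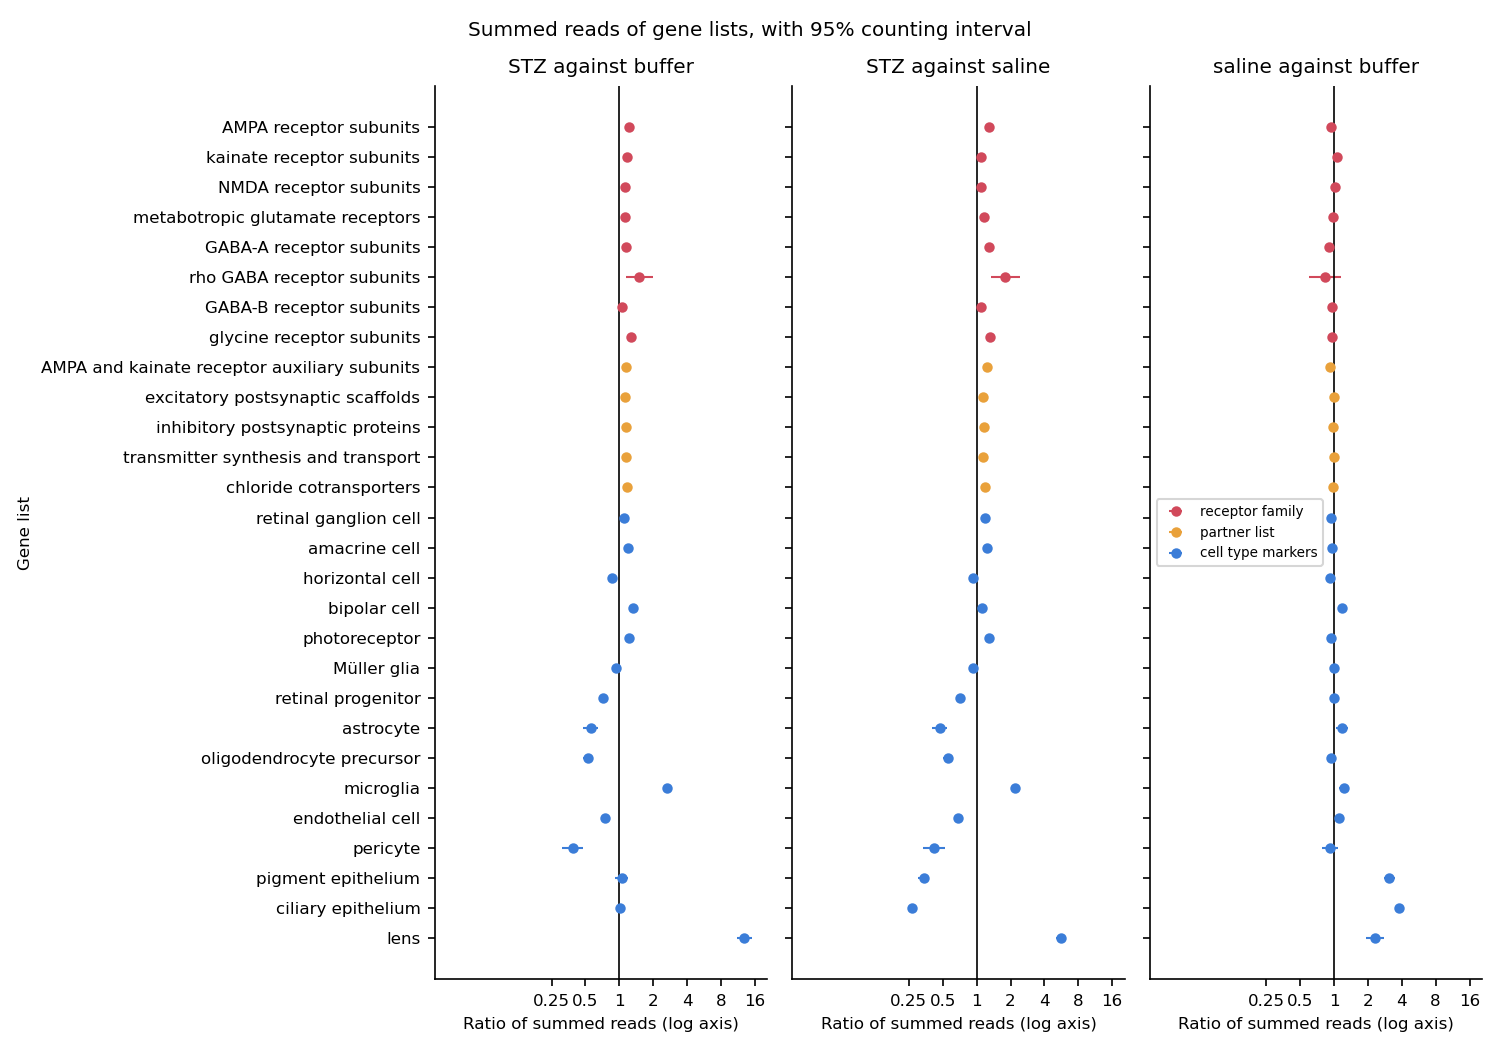
Ratio of summed reads (log axis) of each receptor family, partner list and cell type marker list in the 3 comparisons, with exact 95% counting intervals. Receptor families and partner lists sit above 1 in both STZ panels, at 1.07 to 1.80, and marker lists spread from 0.267 for ciliary epithelium to 12.9 for lens. A sum above 1 does not hold for every gene in it. In STZ against Saline 2 of the 6 NMDA genes had a count ratio above 1, and the cotransporter Slc12a2 was below 1 in both STZ panels.

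By family the STZ to Buffer ratio of summed reads ran from 1.07 (1.03 to 1.10) for GABA-B subunits to 1.51 (1.14 to 2.01) for rho subunits, with AMPA subunits at 1.23 (1.18 to 1.28) and glycine receptor subunits at 1.27 (1.17 to 1.38). Summed reads of cell type markers also differed between STZ and Buffer, where 26.2% of all genes with a mean of at least 10 reads had an interval above 1 and 18.8% below. Photoreceptor markers had a ratio of 1.21 with 7 of 8 genes above, amacrine markers 1.19 with 6 of 8, bipolar markers 1.32 with 2 of 4 deeper genes, and ganglion cell markers 1.10 with 5 of 9, and these 4 lists had 0 genes below. In STZ against Saline 26.9% of all genes of that depth had an interval above 1 and 23.5% below. The sums of the same 4 lists there were 1.30, 1.25, 1.12 and 1.18, with 7, 5, 3 and 7 genes above. Genes below in that comparison were Arr3 among photoreceptor markers, Slc6a9 and Ptf1a among amacrine markers, and Trpm1 among bipolar markers. Prkca held 1145 of the 1627 Buffer reads of the bipolar list. Trpm1, with 213 reads in Saline and 19 in STZ, lowered the bipolar sum against Saline. Its Saline to Buffer ratio was 16.4, in the library with raised pigment and ciliary epithelium genes. Whether its reads came from bipolar cells was not tested. Summed marker FPKM was 1023.9, 966.7 and 1261.2 for photoreceptors, and 298.9, 285.8 and 349.5 for amacrine cells. Retinal progenitor markers had a ratio of 0.715 with 7 of 7 genes below, at 709.5, 716.5 and 507.4 summed FPKM. Horizontal cell markers summed to 0.861 times Buffer, a sum dominated by Prox1 (4297 of 5060 Buffer reads), with 2 of 5 genes above and 2 below and a median log2 fold of 0.13. Müller glia markers were at 0.926, with 2 of 6 above and 2 below. Markers of non-neuronal cells were lower in STZ than in Buffer for astrocytes (0.556, 3 of 3 genes below), oligodendrocyte precursors (0.525, 3 of 4 deeper genes), endothelial cells (0.749, 4 of 4) and pericytes (0.385, 3 of 3), and higher for microglia (2.65, 5 of 5 above). The oligodendrocyte precursor sum was dominated by Pdgfra (650 of 1158 Buffer reads) and Olig2 (441). Sox10 of that list had 24, 29 and 35 reads, with an STZ to Buffer interval that spanned 1 (0.842 to 2.56). Olig1 had at most 2 reads in any library. Whether these retinas held such precursors was not tested. The endothelial sum was dominated by Kdr (13149 of 13392 Buffer reads), whose ratio was 0.757. Pecam1, Cdh5 and Tek had ratios of 0.524, 0.235 and 0.285. Vsx1 and Scgn, markers of bipolar subsets, had at most 7 reads in any library, Rpe65 had 0 reads in Buffer and Olig1 had 0 in Saline. Some genes stand in a partner list and a marker list at once, among them Gad1, Gad2 and Slc32a1. Isl1 stands in both the ganglion cell and bipolar lists. Cspg4 stands in both the oligodendrocyte precursor and pericyte lists and is counted among the genes below in each. The part of cell composition in the receptor differences was not tested.

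**Figure D5:**
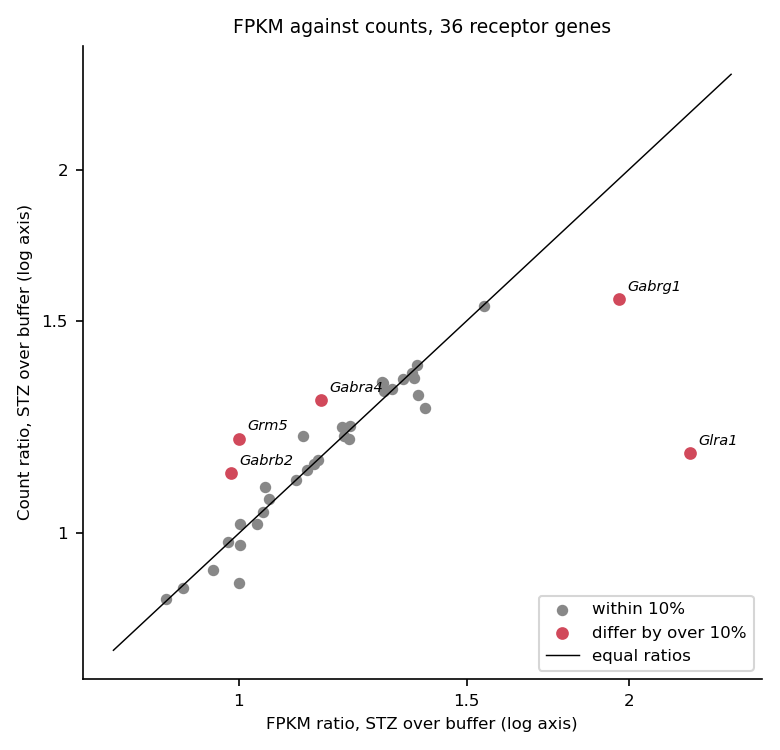
STZ to Buffer ratio of the deposited FPKM values against the ratio of library shares from read counts (both log axes), 1 point per receptor gene with a mean of at least 10 reads. Most genes lie on the diagonal, and Glra1, Gabrg1, Gabra4, Grm5 and Gabrb2 lie more than 10% from it.

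The deposited FPKM values were not a fixed multiple of the read counts for every gene. In STZ against Buffer the FPKM ratio and the count ratio differed by over 10% for 5 of the 36 deeper receptor genes, against 3.59% of all genes of that depth. Glra1 had an FPKM ratio of 2.23 and a count ratio of 1.17, and Gabrb2 had a count ratio of 1.12 with an FPKM slightly lower in STZ. In STZ against Saline 6 genes differed that way (against 3.39%), and in Saline against Buffer 5 (against 3.24%). Most of these genes had few reads, and how length entered the FPKM values was not given in the sources used here.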

How the data were processed

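Total RNA of dissected retinas was made into libraries with the TruSeq RNA kit. As the methods state, the authors checked quality with FastQC, trimmed the 5′ ends of reads, aligned with TopHat2 allowing up to 2 mismatches and discarded reads with several matches. The build named in the submitters' processing notes is rn6. The gene annotation and counting tool were not given in the sources used here, nor was the use of strand. The deposited table holds, for each gene and library, an estimated count, FPKM and TPM values as the authors computed them. The deposited estimated counts were not all whole (2858 genes had a fractional value), and they were rounded for intervals. The FPKM values, scaled to length and depth, were computed by the authors with their own script, and TPM as deposited by the authors was used only as an alternative.

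Groups came from the treatment labels of the samples, with 1 library each, and the columns of values were matched to samples by title. Folds were (FPKM + 1)/(FPKM + 1), with thresholds of 1.54 and 0.65. Count ratios were ratios of library shares with exact 95% Clopper-Pearson conditional intervals, which cover counting error only. At the depth of 21977843 to 22031249 reads the median interval of the receptor genes reached 0.22 log2 units to either side in STZ against Buffer. Ratios of 2 genes between libraries had exact conditional intervals. Results were also computed with 0.1 added in place of 1, with stricter thresholds (2 and 0.5), and with a mean of at least 10 reads, TMM (edgeR 4.0.16) and median-of-ratios (DESeq2 1.42.0) scaling, TPM, CPM, the counting interval as the rule, and the mean of both controls; interval calls with scaled totals were added after the data were seen. Analysis used Python 3.11.15 with scipy 1.17.1 and R 4.3.3, and was tested on simulated data. All 37 receptor genes were named; partner genes were named if past the thresholds in STZ against both controls, or if highest in Buffer within their list. A result that this rule would name is not reported here. The members and lists were chosen with earlier results of these data known. A planned comparison of protein sequences was not made.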

Additional observations from a re-analysis of the deposited data

How the results depend on the processing

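No paired analysis was possible because each group had 1 library and the labels carry no replicate numbers (whether Buffer and STZ retinas were fellow eyes was not given), and for the same reason no replicate could be left out. The number of receptor genes past the fold thresholds was 0 in each direction and comparison, and it stayed 0 with thresholds of 2 and 0.5, with the filter of 10 reads, and with TMM or median-of-ratios scaling. With the mean of both controls as reference, run for STZ against Buffer only, it was also 0 in each direction. With a pseudocount of 0.1 it was 2 higher and 1 lower in STZ against Buffer, 3 higher in STZ against Saline, and 1 higher and 1 lower in Saline against Buffer. TPM gave 1 lower in STZ against Buffer, and CPM 1 higher in STZ against Saline. With the counting interval as the rule the numbers were 17 higher and 1 lower, 18 higher, and 3 higher and 3 lower. Over all genes, the pseudocount of 0.1 raised the numbers past the thresholds in STZ against Buffer from 415 and 191 to 1432 and 831, in STZ against Saline from 375 and 322 to 1265 and 1270, and in Saline against Buffer from 185 and 79 to 1113 and 541. Thresholds of 2 and 0.5 gave 166 and 52, 130 and 85, and 72 and 28 in the same order, TPM gave 605 and 304, 575 and 513, and 350 and 130, and the counting interval gave 4007 and 2851, 4075 and 3585, and 2452 and 1807. Median log2 folds of the receptor genes ranged over the settings from 0.12 to 0.20, 0.15 to 0.23 and -0.03 to -0.01 in the 3 comparisons. Of 222 recomputed folds of single genes, 221 moved by less than counting error, and that of Gabrb2 was 1.12 from CPM against 0.99. That rule is lenient for genes with few reads, whose counting intervals are wide. In STZ against Buffer Gabrg1 ran from 1.082 to 1.725, Glra1 from 1.074 to 1.696 and Glra3 from 0.352 to 0.845. Each of these genes reached past a fold threshold in some setting. Low counts limit the genes with under 100 reads, and differences between animals cannot be judged with 1 library per group.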

Other observations

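Slc6a13 and Trpm1 had their highest counts in the Saline library, as did the ciliary epithelium markers and, among the pigment epithelium markers, Pmel and Tyrp1. Slc6a13, a GABA transporter, had 12 reads in Buffer, 187 in Saline and 49 in STZ. Trpm1, the channel gated downstream of the metabotropic glutamate receptor of ON bipolar cells, had 13, 213 and 19. Cabp5, another bipolar marker, had 279, 245 and 375, and so did not share that order. The bipolar marker sum was 1.18 times Buffer in Saline with Trpm1 included. Among the other deeper genes of that list, Cabp5, Isl1 and Prkca had Saline to Buffer ratios of 0.879, 0.855 and 1.13. These genes were chosen after their values were seen, and no cause was tested.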
